A study of Mus musculus with 40 samples.

Results

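In primary mouse bone marrow-derived macrophages, 847 of the 30960 deposited C/EBPb peaks lay on a CTCF peak and on no PU.1 peak. These sites were chosen by position alone. A C/EBPb peak on chromosomes 1 to 19 or X was taken when 1 bp or more of it lay in the CTCF list and no base of it in the PU.1 list, whether or not SMARCA5 was there. They made up 2.74% of the 30895 C/EBPb peaks on these chromosomes and 37.9% of the 2237 that met CTCF, which were 7.24% of the list. The count itself follows from the rule and is a description.

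The lists come from chromatin immunoprecipitation and sequencing of macrophages of 2 genotypes, wild-type mice carrying Csf1r-Cre and SMARCA5 knockout mice (Smarca5lox/lox Csf1r-Cre, labelled Smarca5-/-). Both genotypes thus carried the Cre transgene under the Csf1r promoter, which is active in the monocyte and macrophage lineage, and both cultures received 4-hydroxytamoxifen every day while they differentiated. CTCF, PU.1 and C/EBPb were each profiled in 4 untreated libraries, 2 per genotype, and SMARCA5 in 8 libraries after micrococcal nuclease digestion, 2 per genotype untreated and 2 per genotype after 2 h of lipopolysaccharide at 10 ng/ml. Each protein is represented by 1 consensus list on mm39 for the whole series. A total of 0 value columns belonged to a library, so neither the genotypes nor the stimulus could be compared, and a site may rest on calls from either genotype. Read depth is unknown, and a site with no PU.1 peak is not shown to be free of PU.1.

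C/EBPb is a basic leucine-zipper transcription factor of myeloid cells that binds DNA as a dimer and in macrophages often works at enhancers opened by PU.1, an ETS factor. CTCF is a zinc-finger protein with a long motif; it halts cohesin, and its sites anchor chromatin loops and mark insulators. SMARCA5 (SNF2H) is the ATPase of the ISWI remodelling complexes, which slide and space nucleosomes and are known to be needed for regular nucleosome arrays beside CTCF sites. No DNA sequence or gene is given for the sites, since the reference tables at hand are on GRCm38.p6 and coordinates were not moved between builds.

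Almost every site was a simple pair of peaks. The 847 C/EBPb peaks met 848 CTCF peaks: 1 site carried 2 CTCF peaks, and 0 CTCF peaks served 2 sites. The median width was 410 bp for the C/EBPb peaks and 415 bp for their CTCF partners, and the median overlap was 303 bp. The overlap was thus most of the length of either peak. Both summits lay inside both peaks at 621 sites, or 73.3%, against 62.9% of C/EBPb peaks with both CTCF and PU.1. The partner CTCF peak itself touched a PU.1 peak at 26 sites, and the other 821 had PU.1 on neither peak.

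The summits of the 2 factors were close but seldom at the same base. The distance between the C/EBPb summit and the nearest summit of an overlapping CTCF peak had a median of 80 bp (95% interval of the median 70 to 88, n = 847) and quartiles of 40 and 212 bp. Only 2 sites had both summits on the same base. Distances of 0 to 19 bp occurred at 89 sites, of 20 to 39 bp at 121, of 40 to 59 bp at 123 and of 60 to 79 bp at 88. The most frequent spacing was therefore 20 to 59 bp and not 0, on a scale much shorter than either peak. It fell off to 61 sites at 80 to 99 bp and 40 sites at 100 to 119 bp. CTCF lay toward higher coordinates at 423 sites and toward lower coordinates at 422, so neither side was favoured on the reference strand. How a consensus summit was placed is not given in the sources used here, which limits how finely such spacings can be read.

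**Figure D1:**
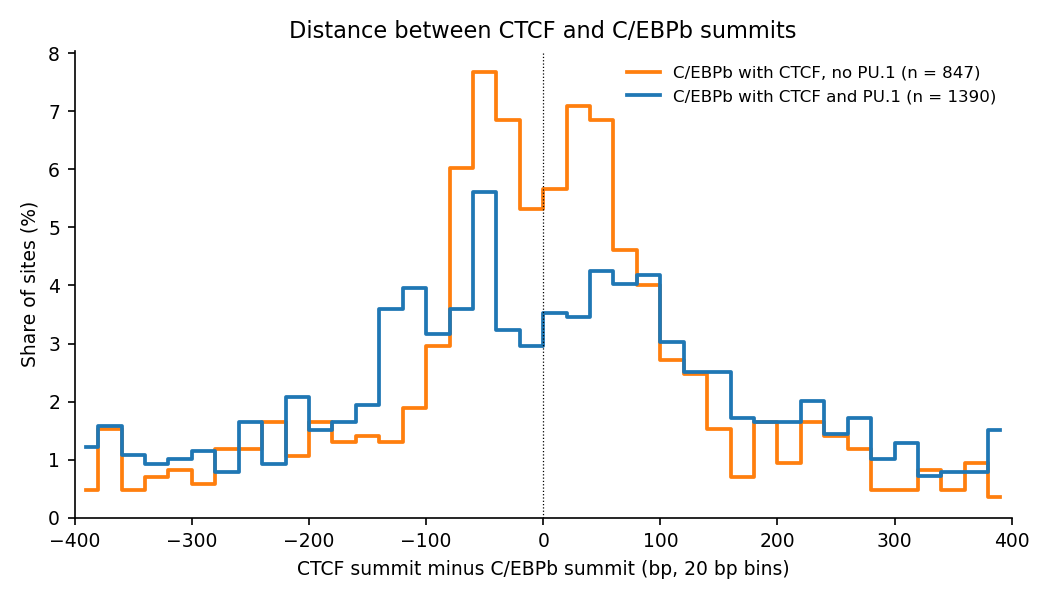
Signed distance from the C/EBPb to the CTCF summit in bins of 20 bp (x axis, bp), as a share of sites (y axis, %), for the 847 sites without PU.1 and the 1390 with PU.1. The sites without PU.1 form a shoulder on each side of 0 at about 20 to 60 bp. Those with PU.1 spread wider and are also higher at 40 to 60 bp on each side than next to 0. Distances beyond 400 bp are not drawn.

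Where PU.1 was also present, the summits stood farther apart. The 1390 C/EBPb peaks with both CTCF and PU.1 had a median CTCF distance of 137 bp (128 to 146). Their most frequent spacing was off 0 as well, with 89 sites at 0 to 19 bp, 91 at 20 to 39 bp and 135 at 40 to 59 bp. A spacing off 0 was thus not particular to the sites without PU.1. Summits lay within 50 bp of each other at 280 sites without PU.1, or 33.1% (95% Wilson interval 30.0 to 36.3), against 24.0% of all C/EBPb peaks that met CTCF and 18.4% (16.5 to 20.5) of those with PU.1. Within 100 bp the shares were 57.3% (53.9 to 60.6) without PU.1, 45.4% over both kinds together and 38.2% (35.7 to 40.8) with PU.1. Wide peaks can overlap with distant summits, and the C/EBPb peaks at sites with PU.1 were wider, at a median of 475 bp against 410 bp. Whether width accounts for the difference in spacing was not tested. Among sites where both peaks were narrower than 450 bp, 394 in each class, the medians were 62.5 bp (56 to 67) without PU.1 and 96.5 bp (85 to 108) with it. The closer spacing was also present under this limit on width, which itself bounds the distance. The median C/EBPb width there was 371.5 bp without PU.1 and 382 bp with it. These intervals cover counting error only, here and throughout: peaks share libraries and are not replicates.

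At 222 sites, or 26.2%, the summits were more than 200 bp apart, against 37.7% of the C/EBPb peaks with CTCF and PU.1. The 222 sites ranged from peaks that barely touched to peaks that overlapped widely: 31 shared at most 50 bp, and 93 shared at least 50% of the shorter peak. The widest spacing, 999 bp, was found on chromosome 10 from 77441822 to 77442491, where both factors were weak, with fold enrichments of 8.13 for C/EBPb and 7.79 for CTCF and an overlap of 56 bp. Next came chromosome 14 from 57125345 to 57125743 at 786 bp and chromosome 1 from 177529651 to 177530080 at 752 bp, the latter tied with a site on chromosome 7. At all 3 of these named sites a SMARCA5 peak covered the pair, and on chromosomes 14 and 1 the CTCF peaks were broad, 1092 and 1070 bp.

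The named sites with near-coincident summits were picked for the strength of both factors. The widest pairs were picked by distance alone, so the strengths of the 2 kinds cannot be compared. On chromosome 10 from 12872789 to 12873257 the summits were 2 bp apart, and the fold enrichment was 22.8 for C/EBPb and 20.6 for CTCF. Here the CTCF peak of 397 bp lay wholly within the C/EBPb peak of 469 bp, at the edge of a SMARCA5 peak of 3952 bp. The next of this kind, on chromosome 4 from 129981103 to 129981581, had summits 3 bp apart, fold enrichments of 17.9 and 17.99 for C/EBPb and CTCF, and no SMARCA5 peak. The third, on chromosome 10 from 84989987 to 84990486, had summits 6 bp apart, fold enrichments of 21.7 and 14.3, and a SMARCA5 peak with a fold enrichment of 2.46.

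CTCF was relatively strong at the shared sites and C/EBPb relatively weak. Strength here is the authors' fold enrichment of a peak over local background, ranked within its own list. The CTCF partners had a median fold enrichment of 12.9 (quartiles 10.1 and 15.7), which stood at percentile 61.7 (58.5 to 65.5) of the CTCF list, whose median was 11.6. The C/EBPb peaks had a median of 11.1 (quartiles 8.37 and 15.6), at percentile 45.5 (41.7 to 48.6) of a list with a median of 11.7. In other words, CTCF peaks of the sites came more often from the upper part of their list, and C/EBPb peaks slightly more often from the lower part. The upper 25% of the CTCF list supplied 299 of the CTCF partners and the lower 25% supplied 166. For C/EBPb the order was turned, with 176 peaks from the upper 25% and 224 from the lower 25%. Peak -log10 q, which also grows with the number of reads, gave medians of 67.9 for CTCF and 37.7 for C/EBPb, at percentiles 64.1 and 40.3.

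The same leaning was found at sites that also carried PU.1. There the median percentile was 61.4 for CTCF (57.8 to 64.0) and 42.2 for C/EBPb (39.7 to 45.2), and each interval overlapped that of the sites without PU.1. C/EBPb peaks on neither CTCF nor PU.1 had a median percentile of 50.6, and CTCF peaks on neither C/EBPb nor PU.1 one of 46.8. The strengths of the factors showed no relation to each other. Across the 847 sites, Pearson's r between the log2 fold enrichments was 0.035 and Spearman's rho 0.020, given as a description because the sites share their libraries. Of all sites, 234 were in the upper 50% of both lists, 184 in the lower 50% of both, 286 in the upper 50% for CTCF only and 143 for C/EBPb only.

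**Figure D2:**
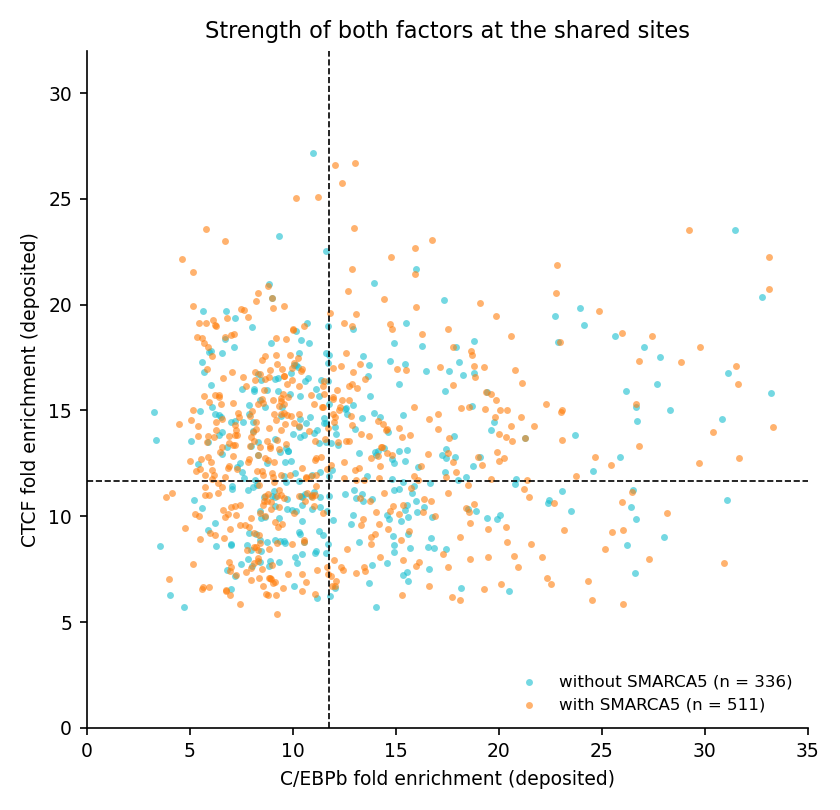
Fold enrichment of C/EBPb (x axis) and of the nearest overlapping CTCF peak (y axis) at each of the 847 sites, with 511 sites on a SMARCA5 peak and 336 off one in different colours; dashed lines mark the medians of the whole lists. The points form no slope, more of them lie above the CTCF median than below it, and both colours fill the same range.

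The leading C/EBPb peaks of the set reached nearly the top of the C/EBPb list without any PU.1 peak on them. The highest, on chromosome 2 from 105258367 to 105258924, had a C/EBPb fold enrichment of 33.3 and a CTCF fold enrichment of 14.2, with summits 43 bp apart and a PU.1 peak no nearer than 9943 bp. It lay in a narrow SMARCA5 peak of 640 bp. The next, on chromosome 10 from 16512667 to 16513192, had 33.2 for C/EBPb and 15.8 for CTCF, summits 50 bp apart and no SMARCA5 peak. The PU.1 gap of the 5 leading C/EBPb peaks ran from 7337 to 20385 bp, and 3 of the 5 met SMARCA5.

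The leading CTCF peaks of the set carried C/EBPb of middling strength. The highest CTCF fold enrichment, 27.2, was on chromosome 7 from 137079934 to 137080283, where C/EBPb had 10.99, the summits were 51 bp apart and PU.1 was 40251 bp away. This site had no SMARCA5 peak. The other 4 did have one. A pair of them lay on chromosome 2, at 118713510 to 118714148 and at 32802369 to 32802768. The others were on chromosome 12 at 84636570 to 84636952 and chromosome 4 at 126362424 to 126362850. Their CTCF fold enrichments ran from 25.1 to 26.7 and their C/EBPb values from 11.2 to 13.0. On chromosome 12 the SMARCA5 peak was 572 bp wide, less than the CTCF peak of 599 bp under it.

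A few sites were strong for both factors at once. On chromosome 7 from 49427784 to 49428290, C/EBPb had a fold enrichment of 31.5 and CTCF 23.5, at percentiles 99.1 and 99.3 of their lists, with summits 63 bp apart and no SMARCA5 peak. The second, on chromosome 17 from 87878899 to 87879461, had 33.1 and 22.3, summits 58 bp apart and a SMARCA5 peak of 2001 bp, with PU.1 20385 bp away. Strength of both factors was thus found both with and without SMARCA5. The third, on chromosome 16 from 20244785 to 20245399, had 29.2 and 23.6, but its summits were 373 bp apart and a PU.1 peak lay 1543 bp away inside the same SMARCA5 peak. Then came chromosome 7 from 27976868 to 27977396, with 33.1 and 20.7 and SMARCA5, and chromosome 3 from 104349151 to 104349689, with 32.8 and 20.4 and no SMARCA5. The next strongest site without SMARCA5 was on chromosome 6 from 50522254 to 50522751, at 25.6 for C/EBPb and 18.5 for CTCF.

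**Figure D3:**
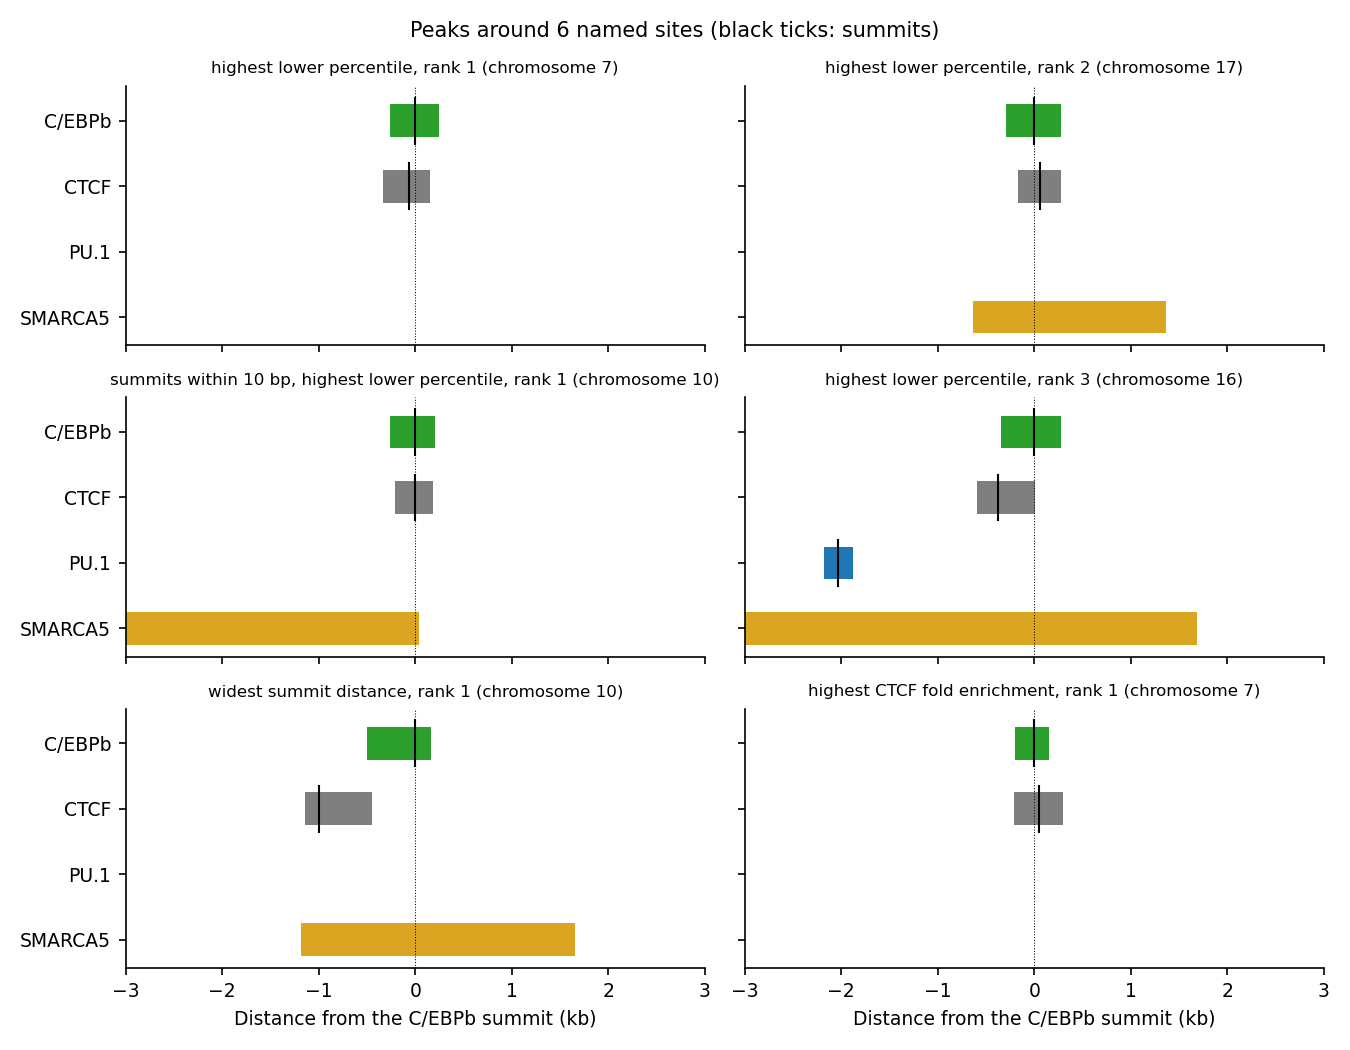
Deposited peaks within 3 kb of the C/EBPb summit (x axis, kb) at 6 named sites, 1 row per protein, with black ticks at the summits of the narrow peaks. The sites on chromosomes 7, 17 and the first on chromosome 10 show closely stacked C/EBPb and CTCF peaks, the one on chromosome 16 a shifted pair with PU.1 in the same SMARCA5 peak, and the second on chromosome 10 a pair that touches only at its edges.

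A SMARCA5 peak was found at 511 of the 847 sites, or 60.3% (95% Wilson interval 57.0 to 63.6), and was missing at 336. Over all C/EBPb peaks the share was 59.6% and over all CTCF peaks 39.9%, so against the C/EBPb list as a whole the sites were at the background level. Of that list, 58.7% carried PU.1. Among C/EBPb peaks on neither CTCF nor PU.1, 37.2% met SMARCA5 (36.3 to 38.0), among CTCF peaks on neither C/EBPb nor PU.1 30.8% (30.2 to 31.5), and among C/EBPb peaks with CTCF and PU.1 84.0% (81.9 to 85.8). The shared sites thus stood between these peaks of 1 factor and the peaks with CTCF and PU.1, with intervals that did not overlap either. C/EBPb peaks with PU.1 and without CTCF were not counted as a class, so no order by number of factors is shown. No test of chance was run on these shares.

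SMARCA5 coverage around the sites was a narrow mound. At the C/EBPb summit 58.4% of sites were inside a SMARCA5 peak, at 500 bp to either side 45.2%, at 1000 bp 32.5%, at 2000 bp 20.96% and at 5000 bp 12.7%. Around C/EBPb peaks on neither CTCF nor PU.1 coverage was 35.5% at the summit and 15.4% at 5000 bp. The shared sites started higher and were lower than these by 5000 bp, so the excess over such C/EBPb peaks was local to the site. CTCF peaks on neither C/EBPb nor PU.1 had coverage of 29.5% at the summit and 9.17% at 5000 bp. Against these CTCF peaks the shared sites were still higher at 5000 bp, and at 50000 bp they had 10.1% against 8.76%. C/EBPb peaks with both CTCF and PU.1 went from 82.8% at the summit to 11.6% at 5000 bp.

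**Figure D4:**
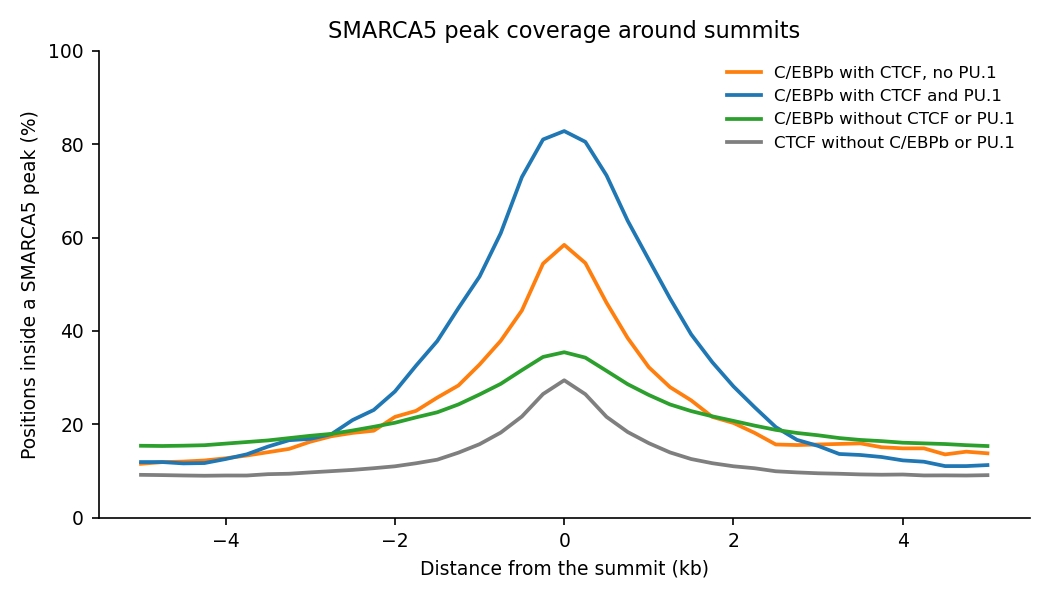
Share of positions inside a SMARCA5 peak (y axis, %) by distance from the C/EBPb summit, or from the CTCF summit for CTCF peaks on their own (x axis, kb). The sites with C/EBPb and CTCF but no PU.1 peak at 58.4%, between the sites with PU.1 at 82.8% and the peaks of 1 factor at 35.5% and 29.5%, and by 3 kb the curve has come down to that of C/EBPb peaks without CTCF or PU.1.

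The SMARCA5 peaks on these sites were of ordinary size and strength, and fewer than 50% of them held PU.1 anywhere. The 511 sites fell on 510 SMARCA5 peaks, whose median width was 2646.5 bp and median fold enrichment 2.07, against 2553 bp and 2.08 for all SMARCA5 peaks. A PU.1 peak lay elsewhere in 238 of them, or 46.7% (42.4 to 51.0), against 72.6% of all SMARCA5 peaks; the rule lowers this share, since it removes sites with PU.1 on the C/EBPb peak. The 272 with no PU.1 peak in them were narrower, with a median width of 1710 bp against 4167.5 bp for those that held PU.1. Within its SMARCA5 peak the C/EBPb summit lay in the inner 50% at 284 of 495 sites, or 57.4% (53.0 to 61.7), and the CTCF summit at 299 of 498, or 60.0% (55.7 to 64.2). Even placement would give 50%. Placement was not measured for other C/EBPb or CTCF peaks, so a lean to the middle is not shown to be a trait of the shared sites.

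Sites with and without SMARCA5 differed little in strength and more in the spacing of their summits. The median C/EBPb fold enrichment was 10.7 with SMARCA5 (9.95 to 11.5) and 11.4 without (10.8 to 11.8), and for CTCF it was 13.0 (12.6 to 13.6) and 12.7 (11.9 to 13.2). By -log10 q the CTCF peaks were stronger with SMARCA5, at a median of 72.9 (67.9 to 76.5) against 58.9 (55.1 to 65.4). The median summit distance was 94 bp with SMARCA5 (82 to 112) and 64 bp without (59 to 74). Read the other way, SMARCA5 was found at 54.3% of sites with summits within 50 bp (48.4 to 60.0), 54.1% at 51 to 100 bp (47.3 to 60.8), 65.0% at 101 to 200 bp (56.8 to 72.4) and 70.7% beyond 200 bp (64.4 to 76.3). Over all sites, those with separated summits met SMARCA5 more often. Counting only C/EBPb summits inside a SMARCA5 peak gave 53.6% at up to 50 bp (47.7 to 59.3) and 66.2% beyond 200 bp (59.8 to 72.1). A PU.1 peak was also nearer to sites with separated summits: the median distance between the 2 summits was 109 bp where PU.1 lay under 1 kb away and 70 bp where it lay 10 kb away or more. Split by PU.1 distance, after the data were seen, the SMARCA5 difference was clear of its intervals only with PU.1 2 to 5 kb away, at 50.0% of 126 sites with summits within 100 bp (41.4 to 58.6) against 77.0% of 87 sites with summits farther apart (67.1 to 84.6). With PU.1 under 1 kb away the shares were 79.8% and 87.6%, at 1 to 2 kb 67.6% and 80.8%, and at 5 to 10 kb 43.3% and 51.6%, with overlapping intervals in each range. At 10 kb or more no such difference was seen, with SMARCA5 at 43 of 107 close pairs, or 40.2% (31.4 to 49.7), and at 28 of 70 others (29.3 to 51.7%).

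By fold enrichment, the SMARCA5 share of the sites showed no steady trend, and by -log10 q it was highest among the strongest peaks. From the lowest to the highest 25% of the C/EBPb list by fold enrichment it was 65.6%, 56.9%, 56.2% and 63.1%, and of the CTCF list 60.8%, 53.4%, 62.0% and 62.5%, with intervals that overlapped. By -log10 q of C/EBPb it was 58.8% in the lowest 25% (52.8 to 64.4), 56.2% in the next (49.6 to 62.7), 58.6% in the third (51.7 to 65.2) and 71.2% in the top 25% (63.6 to 77.8). By -log10 q of CTCF the shares were 55.5% (46.8 to 63.8), 51.2% (43.7 to 58.6), 61.1% (55.0 to 66.9) and 67.0% (61.5 to 72.1). The intervals of the top 25% and of the second lowest 25% did not overlap for either factor. Sites nearer PU.1 also had higher -log10 q, but not higher fold enrichment. The medians of -log10 q were 42.0 for C/EBPb and 71.5 for CTCF with PU.1 under 1 kb away, against 35.2 and 62.6 at 10 kb or more. Those of fold enrichment were 10.4 and 12.6 under 1 kb, against 12.1 and 13.2. C/EBPb peaks on their own also had a lower median -log10 q at 10 kb or more than under 500 bp, at 41.0 against 54.2. For CTCF peaks on their own it was 43.5 against 52.4. Whether PU.1 distance accounts for the pattern by -log10 q was not tested. Shares by strength were not taken over all C/EBPb or all CTCF peaks. The pattern is thus not shown to be particular to the sites. At 10 kb or more from PU.1, 26.0% of CTCF peaks on their own met SMARCA5 in the upper 50% by -log10 q. In the lower 50% it was 8.11%. For C/EBPb peaks on their own the shares there were 13.1% and 10.4%, with overlapping intervals.

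PU.1 peaks lay in the neighbourhood of most sites. The gap from the C/EBPb peak to the nearest PU.1 peak had a median of 3431 bp and quartiles of 1237 and 8635.5 bp, and ran from 2 to 522923 bp. A PU.1 peak lay within 500 bp at 93 sites, or 10.98%, and within 1 kb at 173, or 20.4%, against a background of 12.2% and 22.5% over all C/EBPb peaks with no PU.1 peak on them. These shares were close to the background. C/EBPb peaks on neither CTCF nor PU.1 had a similar median gap, 3267 bp, and CTCF peaks on neither C/EBPb nor PU.1 a longer one, 6781 bp. In this respect the sites resembled other C/EBPb peaks without PU.1 more than CTCF peaks.

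The SMARCA5 share of the sites was lower far from PU.1 than near it, and in each of the distance ranges it was above that of peaks of 1 factor. With PU.1 under 500 bp away, SMARCA5 met 76 of 93 sites, or 81.7% (72.7 to 88.3), against 69.5% of C/EBPb peaks and 69.0% of CTCF peaks on their own. At 500 bp to 1 kb it met 69 of 80 sites, or 86.2% (77.0 to 92.1), against 61.8% and 64.0%. At 2 to 5 kb it met 130 of 213, or 61.0% (54.3 to 67.3), against 36.6% and 35.5%. At 10 kb or more it met 71 of 177, or 40.1% (33.2 to 47.5), against 11.5% for C/EBPb (10.3 to 12.8) and 15.0% for CTCF (14.2 to 15.8). The margin over C/EBPb on its own was 12.3 percentage points under 500 bp and 28.6 points at 10 kb or more. It ran from 20.6 to 27.7 points in the ranges between. Over CTCF on its own it was 12.7 and 25.1 points, and 20.3 to 25.5 points in the ranges between. The margin was thus lowest under 500 bp, and beyond that it showed no steady rise. Far from any PU.1 peak, sites of CTCF with C/EBPb thus met SMARCA5 more often than peaks of either factor by itself. These splits by PU.1 distance were chosen after the data were seen.

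Among sites 10 kb or more from PU.1, the margin was present among strong and among weak peaks. In the upper 50% of the C/EBPb list by -log10 q, 30 of 69 sites met SMARCA5, or 43.5% (32.4 to 55.2), against 13.1% of C/EBPb peaks on their own (11.2 to 15.3). In the lower 50% it was 38.0% (29.4 to 47.4) against 10.4% (8.97 to 12.1). The share moved more with the rank of CTCF. In the upper 50% of the CTCF list it was 47.4% (38.4 to 56.5) against 26.0% of CTCF peaks on their own (24.5 to 27.6), and in the lower 50% it was 17 of 63 sites, or 26.98% (17.6 to 39.0), against 8.11% (7.36 to 8.92).

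**Figure D5:**
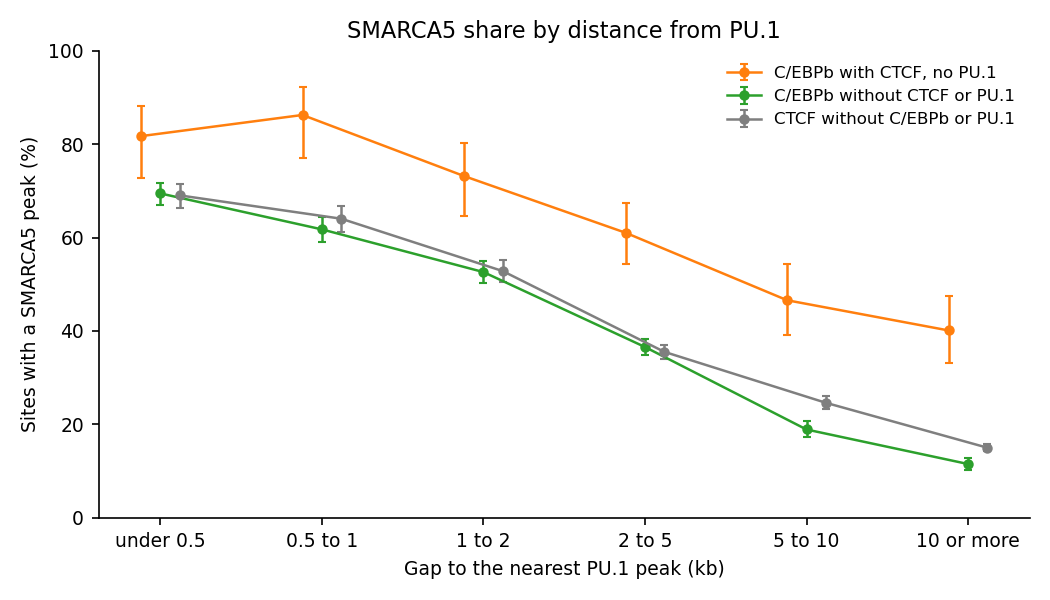
Share of sites with a SMARCA5 peak (y axis, %) by the gap to the nearest PU.1 peak (x axis, kb), with 95% Wilson intervals that cover counting error only. All 3 classes are lower beyond 5 kb than under 1 kb, and the sites with CTCF and C/EBPb stay above the others, at 81.7% under 0.5 kb and 40.1% at 10 kb or more.

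The sites mostly lay singly on the genome, and 6 of the 847 had another site within 10 kb. This count and the gaps that follow were not taken for other peaks, so they are not shown to be particular to the sites. The median gap from the sites was 12729 bp to the next C/EBPb peak outside the set and 15574 bp to the next such CTCF peak. Their share of C/EBPb peaks ran from 2.24% on chromosome 16 (27 of 1208) to 4.09% on chromosome 19 (43 of 1052, 95% Wilson interval 3.05 to 5.46), against 2.74% overall. The interval for chromosome 19 left out the overall share. It is the highest of 20 chromosomes and was singled out for that.

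Values close to the limits of the rule are given without a test. At the CTCF limit, 31 sites overlapped CTCF by at most 50 bp and had a median C/EBPb fold enrichment of 11.3, with SMARCA5 at 18. Another 31 C/EBPb peaks without PU.1 missed a CTCF peak by less than 50 bp, with a median of 10.4 and SMARCA5 at 22. At the PU.1 limit, 9 sites had a PU.1 peak within 50 bp, with a median of 10.5 and SMARCA5 at 6. Just outside, 19 C/EBPb peaks with CTCF overlapped PU.1 by at most 50 bp, with a median of 9.87 and SMARCA5 at 17. The 95% Wilson intervals of the SMARCA5 share inside and outside overlapped at each limit. They were 40.8 to 73.6% and 53.4 to 83.9% at the CTCF limit, and 35.4 to 87.9% and 68.6 to 97.1% at the PU.1 limit.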

How the data were processed

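Peak lists for C/EBPb, CTCF, PU.1 and SMARCA5 were used; H3K27ac was not analysed here. The submitters' processing notes name build mm39 and the tools MACS2 (version 2.2.7.1), STAR (2.7.9a), deepTools (3.5.1) and Picard (2.27.4). What each tool did, how a consensus peak was made and whether libraries were pooled is not given in the sources used here. In the deposited lists a peak has a score, a fold enrichment (read as a ratio over local background) and a -log10 q. These are the authors' values per peak, and they served to describe and rank peaks of the same list. Summits are the start plus the deposited offset. Depth per library is unknown.

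Overlaps of at least 1 bp, gaps between peak edges and summit distances were computed with Python 3.11.15, NumPy 2.4.6, pandas 2.3.3 and SciPy 1.17.1, and figures drawn with matplotlib 3.10.9; the overlap and gap steps were tested on simulated data. Percentiles are ranks within a factor's whole list. Shares have 95% Wilson intervals and medians exact binomial intervals, which treat peaks as independent. No test of chance was run. Start positions are printed 1-based, on the assumption that the deposited starts count from 0. Named sites were the 5 with the highest C/EBPb and CTCF fold enrichment, the 5 with the highest lower percentile of both factors, and the 3 with the widest spacing, with summits within 10 bp, with SMARCA5 and without it, the last 3 kinds ranked by the lower percentile. The sites, comparison classes and alternatives were chosen with earlier results of these data known.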

Additional observations from a re-analysis of the deposited data

Results flagged for a closer look

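The deposited score column entered no comparison above. Of the scores at the 847 sites, 264 for C/EBPb, or 31.2% (95% Wilson interval 28.1 to 34.4), and 335 for CTCF, or 39.6% (36.3 to 42.9), had a decimal part of 0.25 or 0.75, which whole scores of a single call would not have. The shares over the lists were 33.4% for C/EBPb and 37.3% for CTCF. Among C/EBPb scores of the sites it was 33.7% with SMARCA5 (29.7 to 37.9) and 27.4% without (22.9 to 32.4), and among CTCF scores 39.9% and 39.0%. How scores were combined is not given in the sources used here.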

How the results depend on the processing

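The requirement that the CTCF peak also be free of PU.1, and all alternatives for sites 10 kb or more from PU.1, were chosen after seeing the data. The number of sites was 485 with summits within 100 bp, 1480 when only the upper 50% of the PU.1 list could remove a site, and 234 in the upper 50% of the C/EBPb and CTCF lists; under the other 7 alternatives it ran from 674 to 895. The SMARCA5 share was 54.2% with summits within 100 bp, 54.3% with no PU.1 peak within 1000 bp, 69.9% when only the upper 50% of the PU.1 list could remove a site, 28.8% with the upper 50% of the SMARCA5 list, 49.8% without SMARCA5 peaks over 5 kb and 64.0% with narrow peaks resized to 200 bp. Under the other 8 alternatives it stayed between 57.7% and 62.4%. The fall with fewer SMARCA5 peaks follows from the construction; otherwise the cause was not tested. For sites 10 kb or more from PU.1 the share was 29.4% with the upper 50% of the SMARCA5 list, against 6.90% for C/EBPb and 11.2% for CTCF on their own, and 37.9% to 40.3% under the other 5. The median summit distance was 64 bp with an overlap of at least 50% of the shorter peak, as that rule removes distant pairs, and 74 to 80 bp otherwise. The median C/EBPb percentile was 40.3 by -log10 q; the cause was not tested. The CTCF percentile stayed between 61.3 and 64.1. Motif content was not run, since no mm39 sequence was used. No paired analysis was possible because each list is shared by all libraries. Read depth is unknown, so peaks too weak to be listed could not be weighed.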
